A study of Rattus norvegicus with 6 samples.

Results

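Gluconeogenesis makes glucose from lactate, glycerol and amino acids, and glucose export releases it from the liver. The genes examined here were those of its committed enzymes and glucose carriers, Pck1, Pck2, Pc, Fbp1, G6pc1, Slc37a4 and Slc2a2, and of the coactivator Ppargc1a. Every probe set that the platform annotation gives 1 symbol from this list was taken, which gave 10 probe sets for 7 of the 8 genes, out of 14217 genes with a probe set of their own and 31042 probe sets tested. Pck2 had 2 of these probe sets and Ppargc1a had 3. G6pc1 had none of its own: it shares 4 probe sets with Psme3 and Aoc3, whose values are given separately and are outside every count of the 10.

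The livers came from male Wistar rats, 6 weeks old and about 150 g when bought, on 6 arrays, 3 for the control diet (15P) and 3 for the low-protein diet (5P) of equal energy. All rats had 4 days on pellets and 4 days of training to eat the control diet within a daytime window. Each then ate its assigned diet for 8 hours, and its liver was taken after 16 hours without food. Both groups were therefore fasted, and the control is a fasted liver, not a fed one. Whether every array stands for a different rat is not stated in the labels; p-values rest on the spread among the 3 samples of a diet, which may be technical.

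In gluconeogenesis, pyruvate carboxylase (Pc) makes oxaloacetate in mitochondria, and the phosphoenolpyruvate carboxykinases, cytosolic Pck1 and mitochondrial Pck2, turn it into phosphoenolpyruvate. Fructose bisphosphatase (Fbp1) and glucose 6-phosphatase (G6pc1) catalyse the later committed steps. The carrier encoded by Slc37a4 brings glucose 6-phosphate into the endoplasmic reticulum, and GLUT2, encoded by Slc2a2, lets glucose cross the plasma membrane. In fasting, glucagon acts through cAMP and CREB on Pck1, G6pc1 and Ppargc1a, while Pck2 is known as a target of ATF4 in amino acid shortage.

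Promoters are shown for 3 of the genes: the carboxykinase gene of the classic fasting response, its mitochondrial counterpart, and the coactivator gene. The sequences are the 250 bases before each RefSeq start on build GRCr8, all on the plus strand: Pck1 at chr3:182348322-182348571, Pck2 at chr15:32997603-32997852 and Ppargc1a at chr14:63634058-63634307. Capitals mark matches to a cAMP response element in Pck1 and Ppargc1a and to a C/EBP-ATF composite motif in Pck2.
Pck1: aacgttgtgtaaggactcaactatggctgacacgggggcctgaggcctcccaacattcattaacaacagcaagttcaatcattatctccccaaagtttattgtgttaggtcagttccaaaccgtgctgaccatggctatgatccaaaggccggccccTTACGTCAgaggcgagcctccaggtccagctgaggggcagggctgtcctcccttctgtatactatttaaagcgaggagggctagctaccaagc
Pck2: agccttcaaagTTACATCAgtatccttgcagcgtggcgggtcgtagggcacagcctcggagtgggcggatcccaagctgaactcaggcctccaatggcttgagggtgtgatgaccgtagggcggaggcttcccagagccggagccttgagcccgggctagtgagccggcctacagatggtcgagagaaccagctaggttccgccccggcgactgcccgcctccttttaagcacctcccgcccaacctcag
Ppargc1a: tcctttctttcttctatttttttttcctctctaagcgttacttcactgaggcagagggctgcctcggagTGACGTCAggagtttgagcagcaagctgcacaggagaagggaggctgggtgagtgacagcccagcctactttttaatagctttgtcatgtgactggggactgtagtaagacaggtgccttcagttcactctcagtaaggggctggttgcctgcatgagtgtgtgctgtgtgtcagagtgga

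Motifs were searched on both strands of these 250 bases. The full cAMP response element TGACGTCA was found in Ppargc1a, from 181 to 174 bases before the start, and in 1.59% of the 33469 promoters of the table. The form TTACGTCA was found in Pck1, from 93 to 86 bases before the start, and in 0.750% of all promoters. The composite TGATGNAA was found on the minus strand in Pck2, from 239 to 232 bases before the start, in G6pc1, from 150 to 143, and in 3.40% of all promoters. The core TGACG of the cAMP response element lies inside TGACGTCA and TTACGTCA on at least 1 strand. It was in 3 of the 7 list genes with a RefSeq promoter (Pck1, Ppargc1a and Slc37a4) and in 18.2% of all promoters. The forkhead letters GTAAACA (3.21% of all promoters), the E-box CACGTG (5.59%) and the HNF4-like letters CAAAGTCCA (0.338%) were in none of the 7. A match describes the letters and is not a measured binding site. Pc had no entry in the promoter table.

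No probe set of the 10 passed the test between diets over all probe sets (limma, Benjamini-Hochberg adjusted p under 0.05), where 0.132% of all probe sets did (0.0354% upward and 0.0966% downward). Below an unadjusted p of 0.05 were 4 of the 10, against 15.4% of all. These were also the 4 in which the low-protein and control arrays did not overlap, against 21.6% of all. Pck2, Pc and Fbp1 read higher on every low-protein array (12.5% of all probe sets did so), and a Ppargc1a probe set read lower (9.12%). By gene, with the probe set of highest mean, the groups did not overlap in 3 of 7, beside 22.9% of all genes. These were 3 higher (12.8% of all genes) and 0 lower (10.1%), since the brightest Ppargc1a probe set overlapped. The median log2 difference of the 10, low protein minus control, was -0.07 (0.0054 without control replicate 2, -0.16 without control replicate 1), beside 0.03 over all probe sets. Pck1, Slc37a4 and Slc2a2 differed by -0.04, -0.10 and -0.15 on the log2 scale. Without control replicate 3, which stood apart from the other controls, 1 of the 10 passed (Ppargc1a), beside 0.351% of all probe sets (109). Of the 5 fits that each left out another array, 0 of the 10 passed in any, beside 16 to 22 probe sets in all.

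**Figure D1:**
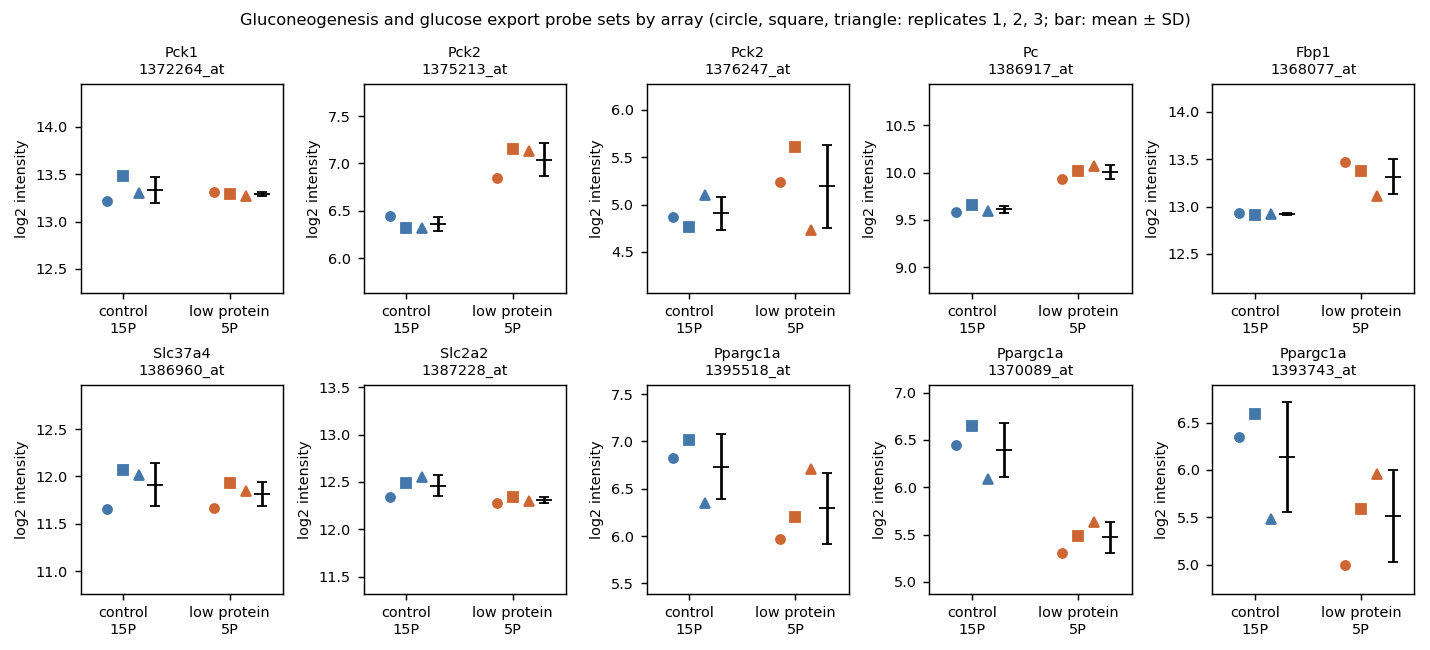
Log2 intensity (y axis, every panel spanning the same width) of the 10 probe sets on the 3 control and 3 low-protein arrays, with symbols for replicates and bars for mean ± SD. Pck2 1375213_at, Pc and Fbp1 sit higher on all 3 low-protein arrays, Ppargc1a 1370089_at sits lower on all 3, and the other 6 overlap.

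Pck2 (gene ID 361042) stood nearest to the threshold. On probe set 1375213_at its log2 intensity was 6.44, 6.32 and 6.32 on control replicates 1 to 3 and 6.84, 7.15 and 7.13 on low-protein replicates 1 to 3. The lowest low-protein array lay above the highest control. The means were 6.36 ± 0.07 and 7.04 ± 0.17 (SD, n = 3 each), a log2 difference of 0.68 (SE 0.108, 95% interval 0.43 to 0.93), or 1.60-fold, ranked 99 of 31042 by p (limma adjusted p = 0.0590). Pck2 passed when arrays were centred on their 75th percentiles (0.73, adjusted p = 0.0477) and with a robust prior variance (adjusted p = 0.0479), settings in which 0.190% and 0.332% of all probe sets passed. Its adjusted p ran from 0.0477 to 0.162 over all 18 alternatives.

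The other Pck2 probe set, 1376247_at, was dim and did not separate the diets. It read 4.87, 4.76 and 5.10 on the controls and 5.24, 5.60 and 4.74 on the low-protein arrays. Low-protein replicate 3, high on the first probe set, was the lowest of all 6 here. The log2 difference was 0.28 (SE 0.203, 95% interval -0.18 to 0.75; limma adjusted p = 0.541), and 0.08 without low-protein replicate 2 or 0.51 without low-protein replicate 3. Averaging both probe sets, fitted over genes, gave Pck2 a difference of 0.48 (limma adjusted p = 0.138).

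Pck1 (gene ID 362282), the cytosolic enzyme and the classic fasting-induced gene of the pathway, read nearly alike on both diets. Its log2 intensity was 13.21, 13.48 and 13.30 on the controls and 13.31, 13.29 and 13.28 on the low-protein arrays. All low-protein values lay inside the control range. The log2 difference was -0.04 (SE 0.096; limma adjusted p = 0.885), with a 95% interval from -0.26 to 0.18, and its sign turned without control replicate 2 (0.036), with 75th-percentile centring (0.0092) and with quantile normalization (0.011).

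The 2 carboxykinase genes were set against each other within each array. The log2 ratio of Pck2 (1375213_at) to Pck1 was -6.77, -7.16 and -6.98 on the controls and -6.47, -6.14 and -6.15 on the low-protein arrays. Only its change between diets is read here, since levels of different probe sets cannot be compared. The ratio was higher on every low-protein array, by 0.72, with an exact two-sided permutation p = 0.1, the smallest that 3 against 3 arrays can give. This test was added after the values were seen, with the Pck2 probe set that already separated the diets. Pck1 ranged over only 0.27 on the 6 arrays, so the ratio had to separate as well. The test therefore adds no support to the Pck2 difference. The other Pck2 probe set, whose groups overlapped, was not set against Pck1.

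Pc (gene ID 25104) supplies oxaloacetate to both carboxykinases. It read 9.59, 9.66 and 9.60 on the controls and 9.93, 10.02 and 10.07 on the low-protein arrays. The groups lay apart by more than either group's spread. Pc differed by 0.40 on the log2 scale (SE 0.0848, 95% interval 0.20 to 0.59), or 1.32-fold, and did not pass (limma adjusted p = 0.101; 0.0698 to 0.255 over the alternatives).

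Fbp1 (gene ID 24362), the bisphosphatase that opposes phosphofructokinase, showed an uneven spread. It read 12.94, 12.91 and 12.92 on the controls and 13.47, 13.38 and 13.11 on the low-protein arrays. The controls lay within an SD of 0.01, the low-protein arrays within 0.19, and low-protein replicate 3 was nearest to the controls. The log2 difference was 0.39 (SE 0.108, 95% interval 0.14 to 0.64), or 1.31-fold (limma adjusted p = 0.163), and was 0.50 without low-protein replicate 3.

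Red blood cell markers summed higher on the low-protein arrays. Of the 4 listed, 3 were higher, 1 was lower and none passed, and their summed intensity ran from 2845 to 3100.5 on the controls and from 4030 to 4294 on the low-protein arrays, with Slc4a1 and Epb42 below the array median throughout. Their part in the differences of Pck2, Pc and Fbp1 was not tested.

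**Figure D2:**
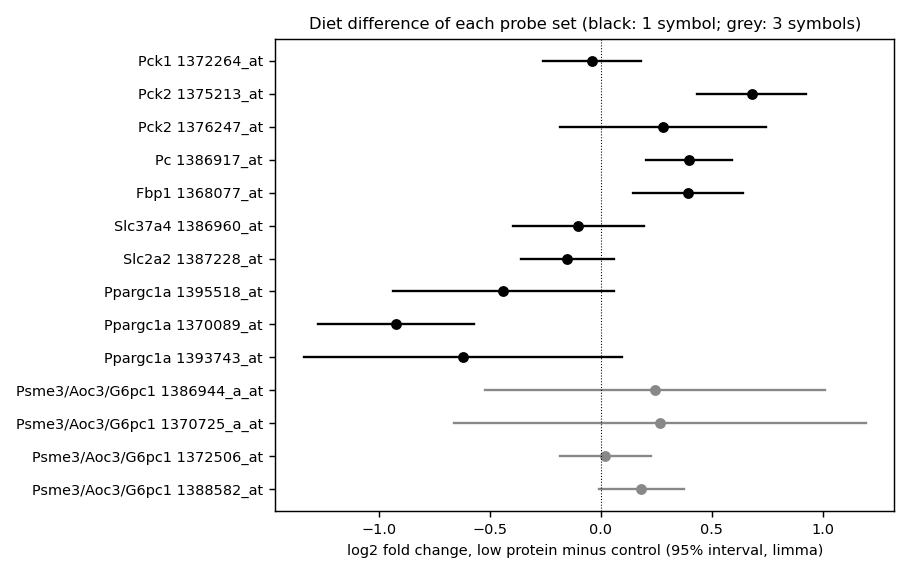
Log2 difference, low protein minus control (x axis), of the 10 probe sets with 1 symbol (black) and the 4 annotated to 3 genes (grey), with 95% intervals from limma. The intervals of Pck2 1375213_at, Pc, Fbp1 and Ppargc1a 1370089_at leave out 0, and those of the other 10 include it; these intervals are not adjusted for the number of probe sets tested.

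The carrier genes Slc37a4 and Slc2a2 had small negative log2 differences, with overlapping groups. Slc37a4 (gene ID 29573) read 11.66, 12.06 and 12.02 on the controls and 11.67, 11.93 and 11.84 on the low-protein arrays. Control replicate 1 was the lowest of the 6 and the groups overlapped. The log2 difference was -0.10 (SE 0.130, 95% interval -0.40 to 0.20; limma adjusted p = 0.754), -0.23 without control replicate 1 and -0.026 without control replicate 2.

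Slc2a2 (gene ID 25351), the gene of GLUT2, read 12.34, 12.48 and 12.56 on the controls and 12.28, 12.34 and 12.30 on the low-protein arrays. Low-protein replicate 2 and control replicate 1 nearly coincided, and the remaining low-protein arrays lay below every control. The log2 difference was -0.15 (SE 0.0911, 95% interval -0.36 to 0.06; limma adjusted p = 0.464).

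The 4 probe sets annotated to Psme3, Aoc3 and G6pc1 together cannot be assigned to glucose 6-phosphatase from the annotation. Psme3 encodes a proteasome activator subunit and Aoc3 an amine oxidase. The brightest, 1386944_a_at, read 11.91, 11.79 and 13.01 on the controls and 12.61, 12.86 and 11.97 on the low-protein arrays. Control replicate 3 was the highest array of all, low-protein replicates 1 and 2 followed, and low-protein replicate 3 lay beside control replicates 1 and 2. Its log2 difference was 0.24 (SE 0.335, 95% interval -0.52 to 1.01; limma adjusted p = 0.771), and it ran from 0.02 without control replicate 2 to 0.63 without control replicate 3.

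Probe set 1370725_a_at put the same 3 arrays highest and in the same order. It read 10.08, 9.83 and 11.36 on the controls and 10.83, 11.18 and 10.06 on the low-protein arrays, a log2 difference of 0.27 (SE 0.406; limma adjusted p = 0.796; -0.03 without control replicate 2 and 0.73 without control replicate 3). The control SDs of these probe sets, 0.67 and 0.82, were larger than those of all 10 probe sets with 1 symbol. The spread between arrays of 1 diet exceeded the difference between diets.

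The remaining probe sets with these 3 symbols had other patterns. Probe set 1388582_at was higher on all 3 low-protein arrays (6.88, 6.99 and 6.90, against 6.69, 6.79 and 6.74), by 0.18 (SE 0.0843; limma adjusted p = 0.346). Probe set 1372506_at differed by 0.02 (SE 0.0904; limma adjusted p = 0.942), which turned to -0.041 without low-protein replicate 2 and to -0.0068 with median centring. The 4 probe sets did not follow a common profile over the arrays.

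**Figure D3:**
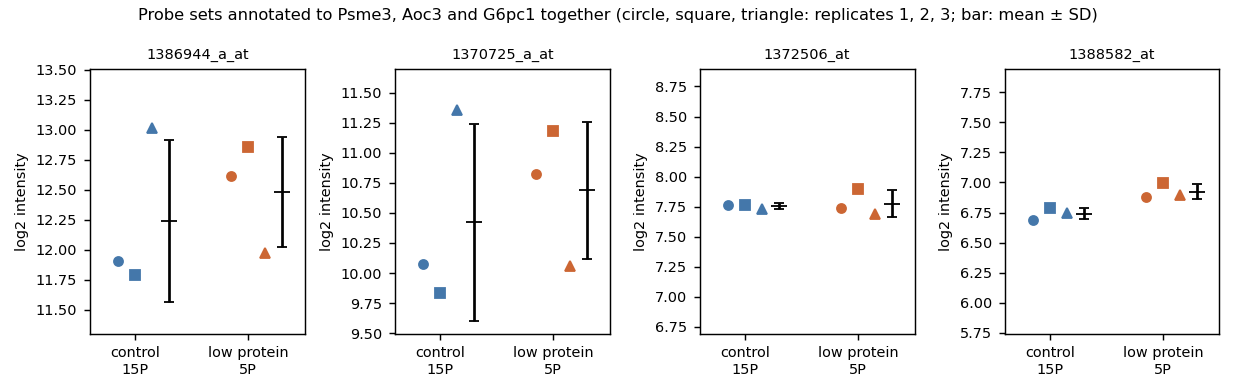
Log2 intensity (y axis, every panel spanning the same width) of the 4 probe sets annotated to Psme3, Aoc3 and G6pc1 together, by array, with bars for mean ± SD. On 1386944_a_at and 1370725_a_at control replicate 3 and low-protein replicates 1 and 2 are high and the other 3 arrays are low, in both diets.

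Ppargc1a (gene ID 83516) encodes PGC-1alpha, the coactivator that fasting induces in liver and that acts on the gluconeogenic genes. On probe set 1370089_at it read 6.44, 6.65 and 6.09 on the controls and 5.30, 5.48 and 5.63 on the low-protein arrays. Each low-protein value was under the lowest control. The means were 6.39 ± 0.28 and 5.47 ± 0.17 (SD, n = 3 each), a log2 difference of -0.92 (SE 0.153, 95% interval -1.27 to -0.57), or 1.90-fold lower, ranked 124 of 31042 by p (limma adjusted p = 0.0652). Ppargc1a passed without control replicate 3 (-1.08, adjusted p = 0.0319) and with array weights (-0.996, adjusted p = 0.0443), where 0.351% and 0.329% of all probe sets passed, and its adjusted p ran from 0.0319 to 0.184 over 16 alternatives.

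The other Ppargc1a probe sets pointed downward with overlapping groups. Probe set 1393743_at read 6.34, 6.59 and 5.48 on the controls and 5.00, 5.59 and 5.96 on the low-protein arrays, a log2 difference of -0.62 (SE 0.314; limma adjusted p = 0.385). Probe set 1395518_at read 6.83, 7.01 and 6.35 on the controls and 5.97, 6.20 and 6.71 on the low-protein arrays, a log2 difference of -0.44 (SE 0.218; limma adjusted p = 0.378). All 3 probe sets ranked the controls alike, with replicate 2 highest and replicate 3 lowest, and the low-protein arrays alike, with replicate 3 highest and replicate 1 lowest.

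Leaving out an array moved both. Without control replicate 3 the differences were -0.95 for 1393743_at and -0.63 for 1395518_at, and without low-protein replicate 1 they were -0.36 and -0.28. Averaged over its 3 probe sets and fitted over genes, Ppargc1a had a difference of -0.66 (limma adjusted p = 0.220). In whole liver, fewer cells with a transcript and less of it per cell cannot be told apart.

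**Figure D4:**
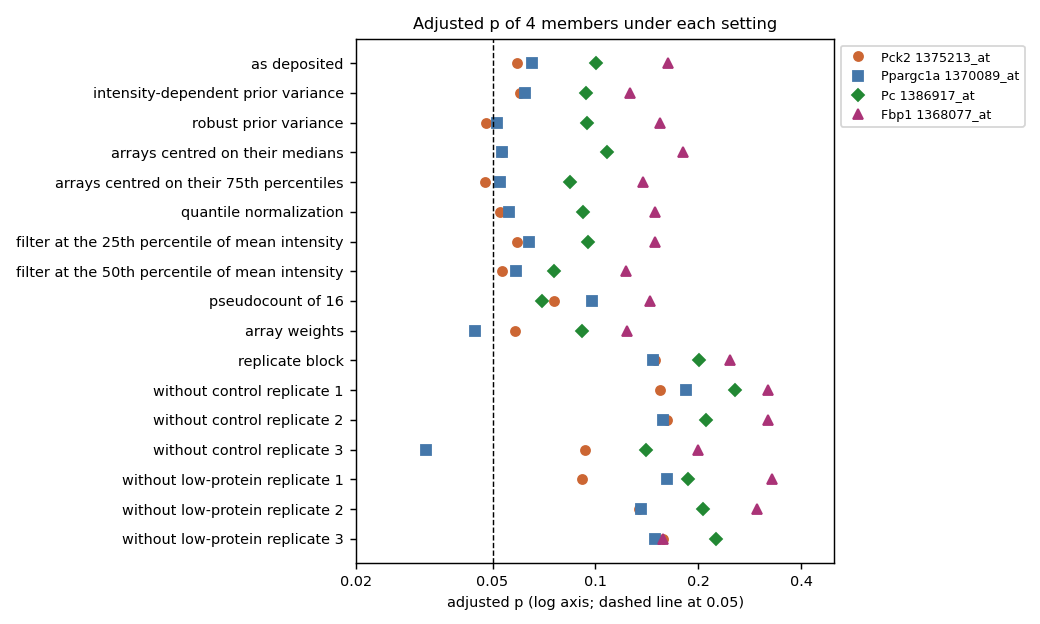
Adjusted p (x axis, log scale, dashed line at 0.05) of the 4 probe sets whose groups did not overlap, under the main setting (as deposited) and each alternative at the level of probe sets. Pck2 lies below the line in 2 settings and Ppargc1a in 2 others, while Pc and Fbp1 lie above it in all settings shown.

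Profiles were compared by the root mean square difference of log2 values over the 6 arrays, each centred on its mean, among the 20826 probe sets with 1 symbol. Nearest to Ppargc1a (1395518_at, SD over the 6 arrays 0.402) were Ints6l, Arid4a and Prkag2, at 0.0722, 0.101 and 0.101. Nearest to Pck1 (SD 0.0908) were Usp34, Myt1l and Chpf2, at 0.0185, 0.0209 and 0.0214, which is the likeness of flat profiles. The likest to 1386944_a_at (SD 0.533) were Arhgap32, Farp2 and Sesn2, at 0.223, 0.226 and 0.234. Their own SDs were smaller, at 0.350, 0.380 and 0.310. This measure counts the size of a profile as well as its shape, so likeness of shape alone was not read. These are descriptions over 6 arrays of 2 diets.

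The wider pathway was read from 5 lists of other genes, 64 of 70 of them measured, with the probe set of highest mean for each gene. None of the 64 passed (limma, adjusted p under 0.05), beside 0.183% of all 14217 genes. Of all 14217 genes 8193 read higher and 6024 lower, and of the 64, 36 and 28. Below an unadjusted p of 0.05 were 20 of the 64, against 16.4% of all genes. In 22 the groups did not overlap (22.9% of all genes), 11 in each direction (12.8% of all genes higher and 10.1% lower). Over all 113 probe sets of these genes, 1 passed, the second probe set of Gpd2, the mitochondrial glycerol phosphate dehydrogenase that draws on glycerol.

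Gpd2 rose on probe set 1387670_at, named because it was the only pass. It read 5.83, 6.01 and 6.10 on the controls and 6.92, 6.88 and 6.65 on the low-protein arrays. The groups lay well apart, and the log2 difference was 0.83 (SE 0.112; limma adjusted p = 0.0455; 0.0361 to 0.137 over the alternatives). Of the 6 fits that left out an array, it passed only without control replicate 3 (adjusted p = 0.0460). In that fit, where 0.351% of all probe sets passed, 3 of the 113 did, with Sds and Foxo3 lower, and in the other 5 none did. The brighter Gpd2 probe set, 1369666_at, had 0.67 (SE 0.149; limma adjusted p = 0.105).

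Carbon supply genes went in both directions. Of 17 measured, none passed, 10 were higher and 7 lower, with a median log2 difference of 0.02 beside 0.03 over all genes. That median had no stable sign: it was 0.14 without control replicate 3, 0.12 without low-protein replicate 2, -0.024 without low-protein replicate 1 and -0.0064 with median centring. Below an unadjusted p of 0.05 (limma) were 7 of the 17, against 16.4% of all genes. In 8 the groups did not overlap, against 22.9% of all genes. Of these, 5 were higher (12.8% of all genes) and 3 lower (10.1%). Mpc2, a subunit of the mitochondrial pyruvate carrier, had 0.67 (SE 0.130; limma adjusted p = 0.0858), and Ldha, a lactate dehydrogenase subunit, had 0.42 (SE 0.0854; adjusted p = 0.0911), with every low-protein array above every control. Got1, the cytosolic aspartate aminotransferase, had -0.67 (SE 0.146, adjusted p = 0.104), with every low-protein array below every control. The list ran from -1.89 for Sds (SE 0.422, limma adjusted p = 0.109) to 0.67 for Gpd2. Sds lies outside the naming rule and is given after its values were seen.

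The list of reversible enzymes shared with glycolysis also holds Mdh1 and Mdh2, malate dehydrogenases outside glycolysis, and Fbp2, whose step is not reversible. All 8 measured genes of the list read higher as deposited, and Mdh2 turned with median centring and without low-protein replicate 2 (7 of 8). None of the 8 passed. Their median was 0.19 (0.12 without low-protein replicate 2), with Gpi, the glucose phosphate isomerase, at 0.65 (SE 0.198; limma adjusted p = 0.191) and Eno1, an enolase, at 0.52 (SE 0.186; adjusted p = 0.244; 0.29 without low-protein replicate 2). Pgk1, the phosphoglycerate kinase, had 0.25 (SE 0.151), which was 0.10 without low-protein replicate 2, 0.42 without low-protein replicate 3 and 0.088 as the mean of its probe sets. Fbp2, the muscle form of the bisphosphatase, was too dim for its size to be read: its log2 intensity was 3.37, 3.24 and 3.30 on the controls and 3.52, 3.57 and 3.51 on the low-protein arrays, it fell below the filter at the 25th percentile, and its difference of 0.23 (SE 0.0837) became 0.092 with a pseudocount of 16. The median of the remaining 7 enzymes was 0.14. The Gpi groups overlapped, control replicate 3 reading 9.92 beside 9.87 on low-protein replicate 1.

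Of the other genes of the glucose 6-phosphatase system and of glucose carriers, 5 were measured and none passed. H6pd, which uses glucose 6-phosphate inside the endoplasmic reticulum, had 0.56 (SE 0.111; limma adjusted p = 0.0872), reading 9.29, 9.53 and 9.60 on the controls and 10.04, 9.93 and 10.13 on the low-protein arrays, with no overlap. G6pc3, the ubiquitous phosphatase, had 0.10 (SE 0.0942; 0.16 without low-protein replicate 1), Slc2a1, of GLUT1, had 0.06 (SE 0.120; -0.03 without low-protein replicate 3) and Slc37a1 had -0.04 (SE 0.107; 0.0066 with 75th-percentile centring).

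None of the 10 measured genes of opposing enzymes and their control passed, with 6 higher, 4 lower and a median of 0.14 (0.067 without control replicate 1). Pfkfb3, of a bifunctional enzyme that sets fructose 2,6-bisphosphate, had 0.29 (SE 0.0982; 0.18 as the mean of its probe sets), and Gckr had 0.25 (SE 0.106). Pdk1, a kinase that restrains pyruvate dehydrogenase, had -0.38 (SE 0.155), and -0.24 without control replicate 3 or without low-protein replicate 1. Pdha1, a subunit of that dehydrogenase, had -0.28 (SE 0.121), and -0.16 without low-protein replicate 3. These were the 4 of smallest p, and their adjusted p ran from 0.217 to 0.324 (limma). The groups did not overlap in these 4 of the 10, beside 22.9% of all genes. Other probe sets of Pfkfb3, Pdk1 and Pdha1 had overlapping groups.

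Among 24 measured receptor and transcription genes, 15 read lower, 9 read higher and none passed, with a median of -0.15 (-0.18 to -0.10 under the 3 rescalings, -0.05 without low-protein replicate 3, -0.084 without control replicate 3). Nr3c1, the glucocorticoid receptor, had -0.69 (SE 0.124; limma adjusted p = 0.0739; -0.45 as the mean of its probe sets), Cebpa, a liver transcription factor, had -0.49 (SE 0.101; adjusted p = 0.0932) and Insr, the insulin receptor, had -0.31 (SE 0.0968; adjusted p = 0.192). Trib3, a pseudokinase known as an ATF4 target, had 0.78 (SE 0.157; adjusted p = 0.0899). Each of these 4 genes, picked for the smallest p, also had a probe set whose groups overlapped. On the probe sets given here the groups did not overlap, as in 7 of the 24 genes, beside 22.9% of all genes.

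The glucagon receptor gene Gcgr had -0.15 (SE 0.0846; limma adjusted p = 0.424), again without overlap. Foxo1, the insulin-restrained activator of G6pc1 and Pck1, had 0.13 (SE 0.194; -0.08 without control replicate 1). Hnf4a, a liver nuclear receptor, had -0.01 (SE 0.170; 0.15 without low-protein replicate 3 and 0.04 with 75th-percentile centring). The last 2 differed by less than the spread within a diet.

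**Figure D5:**
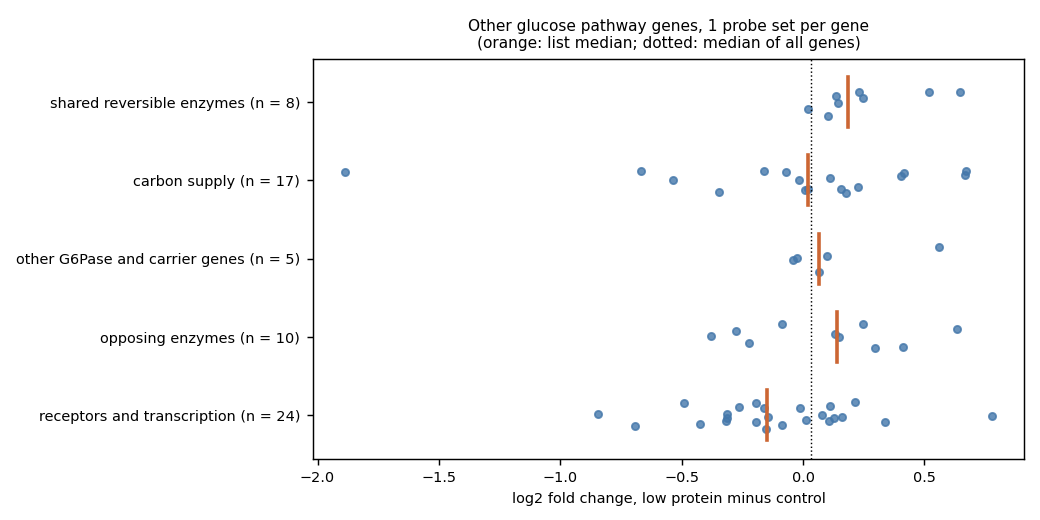
Log2 difference, low protein minus control (x axis), of the other genes of the glucose pathway, a point per gene, in 5 lists, with list medians in orange and the median of all genes dotted at 0.03. All 8 points of the list labelled shared reversible enzymes, Fbp2 among them, lie above 0 as deposited (7 with median centring). The receptor and transcription genes have a median of -0.15.

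Array medians ran from 33.3 to 34.3 in intensity. On the first principal component control replicate 3 scored -10.1, against -26.9 and -22.5 for the other controls and 17.3 to 22.6 for the low-protein arrays. All 7 measured hepatocyte markers of 8 listed were above the median of every array, with sums of 80129 to 81384 on controls and 79657 to 81696 on low-protein arrays. Of the 4 measured lymphocyte and 5 pancreas markers, 3 and 4 were below the median on all 6 arrays. The sums of Kupffer cell, endothelial, stellate cell, cholangiocyte, lymphocyte and pancreas markers overlapped between diets, and no marker of any list passed.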

How the data were processed

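Liver RNA was labelled with biotin and hybridised to Affymetrix rat arrays. The authors deposited 1 RMA intensity per probe set and array, per the submitters' processing notes, which name no software, version or build. The intensities ran from 3.61 to 21668, were read as linear, and log2 was taken. RMA normalizes between arrays, so any shift common to the bulk of the transcriptome is removed.

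After 57 control probe sets were left out, 31042 of 31099 were fitted without a filter (limma 3.58.1, R 4.3.3, lmFit and eBayes, two-sided; 4 residual degrees of freedom, 8.38 with the prior), with Benjamini-Hochberg adjustment over all and a threshold of 0.05. Differences are low protein minus control; SE and 95% intervals are moderated. Gene names come from the platform annotation, which can be old; the gene IDs of all 10 probe sets were in the RefSeq table of GRCr8, which is also the source of the promoters.

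All 10 probe sets are described. From each list of other genes the rule names the 4 of smallest p, plus Gcgr, Foxo1 and Hnf4a; some listed items are not reported here. The genes and lists were chosen with earlier results of these data known. On simulated data for this comparison, over 31042 probe sets, 98 of 100 changes of 1 and 100 of 100 changes of 2 (log2) were recovered, with 21 false calls. The values were drawn independently from normal distributions with each probe set's mean and moderated SD. The recovery therefore describes such values and not the arrays themselves. Changes under 1, such as those of all 10 probe sets as deposited, were not simulated. Sds differed by more than 1 (-1.89) and did not pass on these arrays (limma adjusted p = 0.109). The number of arrays limits the precision. Figures were drawn with matplotlib 3.10.9.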

Additional observations from a re-analysis of the deposited data

How the results depend on the processing

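Of the 10 probe sets 9 kept their direction under every alternative run; the exception was Pck1. No probe set passed in the main setting, and 1 passed with a robust prior variance (Pck2), with 75th-percentile centring (Pck2) and with array weights (Ppargc1a), where calls over all probe sets rose from 41 (0.132%) to 103 (0.332%), 59 (0.190%) and 102 (0.329%); leaving out each array in turn gave 0 to 1, the 1 being Ppargc1a without control replicate 3. With the replicate number as a block 0 passed. No pairing by number was seen. The deviations of same-numbered arrays correlated at -0.09, -0.03 and -0.10, and 0 of 6 arrays correlated best with its own number. With 3 arrays per diet these values cannot exclude a pairing. Over all probe sets the block gave 6 calls against 41, but it also left fewer residual degrees of freedom.

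Of the 113 other pathway probe sets 1 passed (Gpd2), and 0 with an intensity-dependent prior, quantile normalization, a pseudocount of 16 or the replicate block. Leaving out each array gave 0 to 3, the 3 being Sds, Foxo3 and Gpd2 without control replicate 3 (Sds and Foxo3 are named after their values were seen). Gene-level fits and filters at the 25th and 50th percentiles were also run; the second Pck2 probe set fell below the latter.

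Signs turned for Pck1 (0.0092 with 75th-percentile centring, 0.011 with quantile normalization; -0.10 to 0.036 over left-out arrays), for 1370725_a_at (-0.027 to 0.73 over left-out arrays) and 1372506_at (-0.0068 with median centring; -0.041 to 0.065), for Slc2a1 (-0.030 to 0.17), Slc37a1 (0.0066 with 75th-percentile centring; -0.10 to 0.055), Foxo1 (-0.075 to 0.27) and Hnf4a (0.038 with 75th-percentile centring, 0.049 with array weights; -0.15 to 0.15). The cause was not tested. The rescalings moved the median difference of all probe sets by -0.03, 0.05 and -0.02.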
